A study of Mus musculus with 66 samples.

Results

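The passage from embryonic day 15.5 (E15.5) to E17.5 was examined in lungs of mice that lack Nrf2, the transcription factor encoded by Nfe2l2. The libraries were the 3 labelled knockout (Nrf2-/-) E17.5 and the 3 labelled knockout E15.5, which are 6 of the 66 arrays of a series with 22 groups of 3, and they were chosen by these labels alone. Each array held RNA from homogenized lung, and per the labels each of these samples was 1 lung of an embryo taken from a time-mated dam kept on AIN-76A feed. The labels give no strain, sex or litter, and they do not say how the Nrf2 allele was made. The p-values measure the spread between lungs within groups, pooled over all 22 groups of the series. They cannot account for strain, sex or litter. Set beside the knockout were the 3 wild-type (Nrf2+/+) libraries of each of the same ages and the 3 knockout libraries labelled E18.5. The difference E17.5 minus E15.5 within a genotype is called its step below, on the scale log2(signal + 16) after quantile normalization, on which 1 unit is a doubling and on which changes of dim genes are understated. Of 45037 probe sets tested, 18193 stood for 1 gene each, and these are the genes counted below.

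Over these days the fetal mouse lung leaves the stage in which its epithelial tubes branch and enters the stages in which the distal tubes widen into thin-walled sacs. The distal epithelium separates into type 1 cells, which form the gas exchange surface, and type 2 cells, which make surfactant, the lipid and protein film that keeps air spaces open. Cell division slows, capillaries approach the epithelium, and glucocorticoids from the fetal adrenal drive part of this maturation. Nrf2 itself switches on genes for antioxidant and detoxifying enzymes.

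The targeted gene and the age labels were checked before the results. The brighter Nfe2l2 probe set read 5.50, 5.35 and 5.71 in the knockout E15.5 libraries and 5.96, 4.54 and 5.26 in the knockout E17.5 libraries. Wild-type libraries read 11.45 to 11.58 at E15.5 and 12.11 to 12.24 at E17.5, so all 6 knockout libraries lay far below them. A dim second Nfe2l2 probe set read 5.50 to 5.86 and 6.15 to 6.46 in the knockout ages and 4.60 to 5.64 and 5.73 to 6.25 in the wild-type ages, and it does not follow genotype. Correlation between arrays was 0.979 to 0.9834 within knockout E15.5, 0.9811 to 0.9826 within knockout E17.5 and 0.9408 to 0.9584 between them. Lung identity was checked with the surfactant gene Sftpc, which read 14.27 to 14.60 in all 6 libraries. All arrays of both ages had a trimmed mean signal of 500, and their number, 3 per group, limits the precision.

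The knockout libraries labelled E18.5 went against the order of their labels. Each library was placed on a scale from 0 (mean of wild-type E15.5) to 1 (mean of wild-type birth day, PND0), averaged over 4760 probe sets that changed at least 2-fold between those groups. Knockout E15.5 libraries stood at 0.106, -0.034 and -0.012, and knockout E17.5 libraries at 0.696, 0.781 and 0.769. The knockout libraries labelled E18.5 stood at 0.352, 0.511 and 0.487, so all 3 lay below all 3 of the E17.5 label, whereas wild-type libraries stood at 0.540 to 0.659 at E17.5 and 0.678 to 0.874 at E18.5. For 5594 of the 6057 genes called in the knockout step (92.4%), the mean of the E18.5 label lay between those of E15.5 and E17.5. These genes were selected for a gap between the E15.5 and E17.5 means, which makes a value between them likelier. The share over all genes was not computed, so the 92.4% only describes the called genes. Whether a label is wrong was not tested, so results are given with the libraries as labelled and, for each gene group, also with the E18.5 label in place of the E17.5 label.

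**Figure D1:**
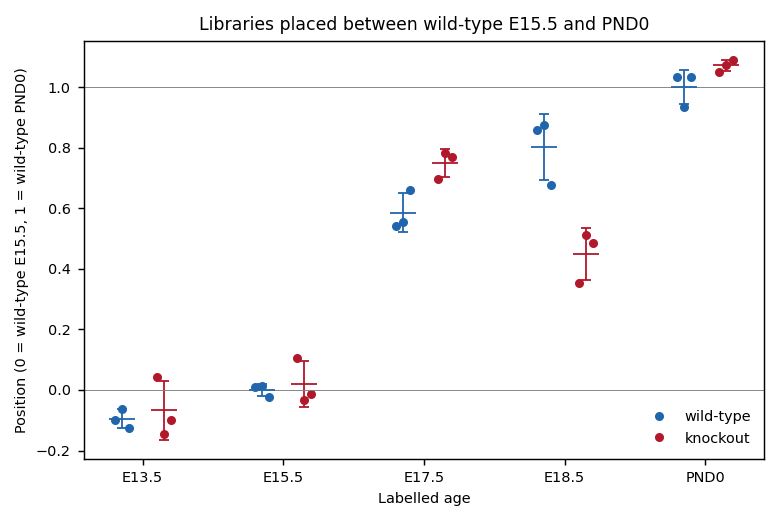
Position of each library of E13.5 to PND0 between the wild-type E15.5 mean (0) and the wild-type PND0 mean (1), by labelled age (x axis). Points are libraries, horizontal marks are group means and bars are SD, n = 3. The knockout libraries labelled E17.5 (0.696 to 0.781) lie above those labelled E18.5 (0.352 to 0.511).

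Between the knockout ages, genes of surfactant, the gas exchange surface, airway secretion and lipid handling were among those that rose most, and genes of cell division fell. The knockout step was called (limma, Benjamini-Hochberg adjusted p under 0.05, two-sided) for 6057 of 18193 genes (33.3%), of which 3168 rose (17.4%) and 2889 fell (15.9%). Among probe sets, 10725 of 45037 were called (23.8%). A step of at least 2-fold was called for 2167 genes (11.9%). At least 4-fold rises numbered 305 and 4-fold falls 67, and 31 genes rose at least 16-fold while none fell that far. The median step over all genes was 0.01. With the libraries labelled E18.5 in place of E17.5, 3037 genes were called, 1674 higher and 1363 lower. Counts of list members with that label stand against these 1674 and 1363 of 18193 genes, fewer than the 3168 and 2889 as labelled.

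S100g, which encodes the calcium-binding protein calbindin-D9k, showed the largest named rise. Its libraries read 4.28, 4.17 and 4.13 at E15.5 and 10.72, 11.24 and 10.94 at E17.5, a step of 6.77 ± 0.38 (SE, n = 3 per age, adjusted p = 3.15e-19), or 109-fold. The earlier values lie close to the floor of 4 that the scale allows. Retnla, a secreted resistin-like protein, read 8.91, 6.35 and 6.37 and then 13.83, 13.97 and 14.03, a step of 6.73 ± 0.45 (adjusted p = 1.14e-16). Replicate 1 of E15.5 was the highest of its group here, as it was for many of the rising epithelial genes below. Other large rises were those of Pon1, a lipid-linked esterase (6.03), the acidic chitinase Chia1 (5.73), the ribonuclease gene Ear3 (5.49, by a probe set that near-identical family members can share), the chitinase-like gene Chil3 (5.42), Gnmt (5.36), the iron-chelator carrier Lcn2 (5.21), the dipeptidase Dpep1 (4.91) and the mesothelial protein Msln (4.78).

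Surfactant and type 2 cell genes rose. Of 23 measured members of this list, 20 rose and none fell, against 17.4% and 15.9% of all genes, and the median step was 2.53. The count stayed at 20 with the E18.5 label in place of the E17.5 label. In RNA from whole lung, more cells of a type and more RNA per cell cannot be told apart, here and throughout. Sftpd, a surfactant collectin of airway defence, read 7.32, 6.47 and 7.15 at E15.5 and 12.12, 12.43 and 12.46 at E17.5, a step of 5.36 ± 0.41 (adjusted p = 7.89e-15). Sftpa1, the other collectin, read 9.91, 8.64 and 9.21 and then 13.57, 13.78 and 13.68, a step of 4.42 ± 0.38 (adjusted p = 1.49e-13). For Sftpb, the hydrophobic protein that spreads the film, the values were 10.73, 8.99 and 9.05, then 12.95, 13.00 and 13.02, a step of 3.40 ± 0.26 (adjusted p = 1.11e-14). In all 3 genes the ages did not overlap, and the E15.5 libraries were more spread than the E17.5 libraries.

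The members that handle phospholipid rose with them. Slc34a2, the phosphate transporter of type 2 cells, rose by 5.12, the desaturase Scd1 by 4.88, the processing protease Napsa by 4.26 and the lamellar body lipid pump Abca3 by 2.53. Lpcat1, which makes the main surfactant phospholipid, rose by 1.94 and the transcription factor Cebpa by 1.90. Sftpc was not called, with 14.53, 14.27 and 14.32 at E15.5 and 14.60, 14.43 and 14.48 at E17.5 (step 0.13 ± 0.22, adjusted p = 0.787). Etv5, a factor of the distal tip and of type 2 cells, stepped by -0.31 (adjusted p = 0.3). A linked list of lysosomal proteases and lamellar body genes had 15 of 16 members up and none down, and 9 up with the E18.5 label.

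Promoters of 2 surfactant genes are shown because both rose together and carry a fixed motif. The 200 bases before the start site of Sftpb (chr6:72304410-72304609, plus strand) and Sftpa1 (chr14:41131588-41131787, plus strand) follow, 5′ to 3′, from RefSeq on GRCm38.p6, with CTCAAG, a core of the binding sequence of the lung factor Nkx2-1, in capitals.
Sftpb: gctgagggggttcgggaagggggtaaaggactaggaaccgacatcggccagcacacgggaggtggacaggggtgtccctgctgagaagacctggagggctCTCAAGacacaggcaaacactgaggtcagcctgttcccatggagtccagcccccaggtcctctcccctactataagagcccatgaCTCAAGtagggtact
Sftpa1: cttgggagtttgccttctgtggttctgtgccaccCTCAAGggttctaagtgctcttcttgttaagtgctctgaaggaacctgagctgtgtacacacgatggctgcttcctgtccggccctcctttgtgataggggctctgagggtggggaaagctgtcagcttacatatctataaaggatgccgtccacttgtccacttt
Of 23 measured list members, 18 matched the RefSeq promoter table, with 20 windows. CTCAAG on either strand was in 2 of these 20 (10%), against 10.5% of all 32851 windows, and TGTTTAC, a forkhead motif, in 2 (10%) against 2.51%. The first share is that of all promoters, and the second rests on 2 windows.

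Type 1 cell genes rose almost without exception. Of 21 measured members, 20 rose (17.4% of all genes did), with a median step of 2.11, and 19 rose with the E18.5 label. Aqp5, the apical water channel of type 1 cells, read 6.87, 4.76 and 6.82 at E15.5 and 10.79, 10.99 and 11.04 at E17.5, a step of 4.79 ± 0.39 (adjusted p = 4.56e-14). Clic5 rose by 3.49, Ager, the receptor for glycation products that type 1 cells hold at high level, by 3.16, and Emp2 and the cofactor Hopx by 2.99 each. Pdpn rose by 1.29 and Cav1, the caveolar coat protein, by 1.07. Igfbp2, a growth factor binding protein that also marks a type 1 subset after birth, was the 1 member that fell. It read 12.06, 12.16 and 12.20 and then 9.71, 9.21 and 9.07, a step of -2.81 ± 0.57 (adjusted p = 0.000115). With the E18.5 label the step of Igfbp2 was -0.98 (adjusted p = 0.34).

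Airway cell genes moved the same way, less uniformly. Of all genes 17.4% rose and 15.9% fell. Of 20 club and secretory cell genes 11 rose and none fell (8 rose with the E18.5 label), and of 26 ciliated cell genes 16 rose and none fell (11 with the E18.5 label). Scgb3a1, a secretoglobin, rose by 5.22 ± 1.01 from 8.42, 6.30 and 7.16 to 13.51, 11.39 and 12.64, so its E17.5 libraries differed by more than 2. The acute phase protein Hp rose by 4.45, the monooxygenase Fmo2 by 4.15, the carbonyl reductase Cbr2 by 3.63 and Cyp2f2, an oxidase of club cells, by 2.53. Scgb1a1, the main club cell secretoglobin, rose by 2.32 from 12.16, 11.11 and 12.63 to 14.22, 14.28 and 14.35. Bpifa1, an airway surface protein, read 7.86, 6.70 and 6.97 and then 5.97, 4.64 and 4.86, without passing the test (step -2.02, adjusted p = 0.15). Among ciliated cell genes, the dynein light chain Dynlrb2 rose by 2.46, Cfap126 by 2.23, Tppp3 by 1.87, the master regulator Foxj1 by 1.15 and the axonemal protein Tekt1 by 0.81. Of 15 neuroendocrine genes 1 rose and 1 fell, the ubiquitin hydrolase Uchl1, by 1.63 on the log2 scale. With the E18.5 label 1 rose and none fell, and the step of Uchl1 was 0.00.

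**Figure D2:**
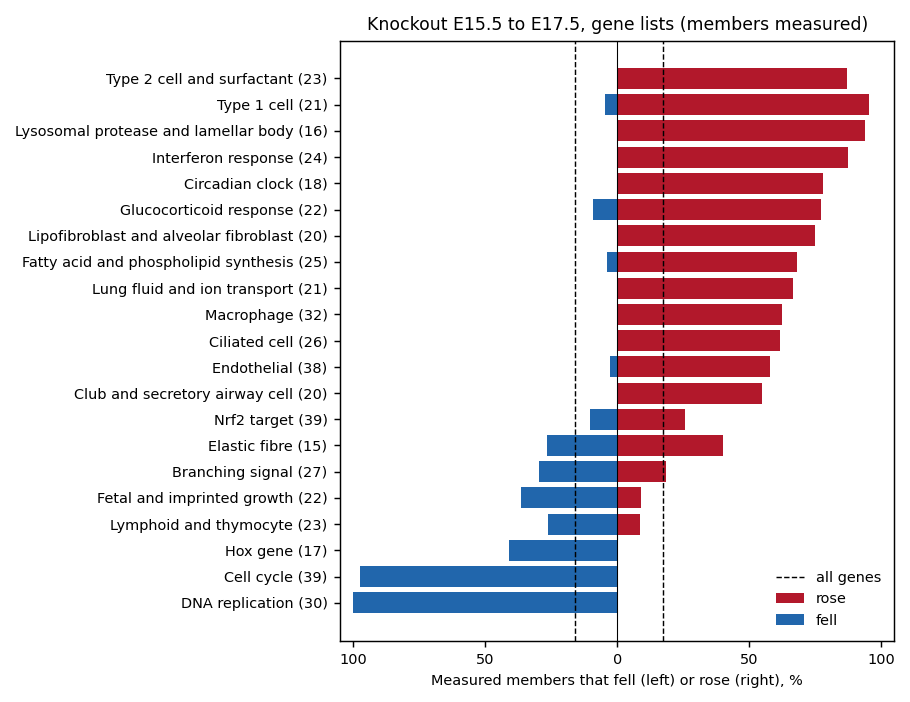
Share of the measured members of 21 gene lists (number measured in brackets) that rose (right) or fell (left) between knockout E15.5 and E17.5. Dashed lines mark all genes, 17.4% risen and 15.9% fallen, and the cell cycle and DNA replication lists are the ones whose members fell almost throughout.

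Genes of cell division fell together. Of 39 measured cell cycle genes 38 fell and none rose, against 15.9% of all genes that fell, and all 30 DNA replication genes fell. Their median steps were -1.60 and -1.78. Mki67, the proliferation marker, read 12.63, 12.68 and 12.74 at E15.5 and 10.85, 11.00 and 10.78 at E17.5, a step of -1.81 ± 0.37 (adjusted p = 0.000137). Plk1, a mitotic kinase, read 10.52, 10.58 and 10.57 and then 8.68, 8.68 and 8.62, a step of -1.89 ± 0.34 (adjusted p = 1.78e-05). The spread within each age was under 0.3 for both genes and the ages did not overlap.

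Others that fell were the spindle checkpoint kinase Bub1 (-2.12), topoisomerase Top2a (-1.85), the mitotic cyclin Ccnb2 (-1.33) and Cdc20, which activates the anaphase-promoting complex (-1.23). Ccnd1, a cyclin that answers growth signals, was the member not called (step -0.39, adjusted p = 0.0815). In the replication list the steps were -2.72 for Uhrf1, which carries DNA methylation through replication, -2.19 and -2.17 for the helicase subunits Mcm3 and Mcm5, -2.22 for the loading factor Cdc6 and -2.27 for Gins1. The exonuclease Exo1 and the replication initiator Ticrr, outside these lists, fell too (-2.70 and -2.65). Of 15 cell cycle inhibitors 9 rose and 1 fell (6 and 1 with the E18.5 label). Cdkn2b read 6.86, 6.85 and 5.93 and then 10.55, 10.54 and 10.84 (step 4.09 ± 0.35, adjusted p = 1.82e-13), Gadd45g rose by 2.67 and Cdkn1a by 1.95, and the pocket protein Rbl1, itself high in dividing cells, fell by 1.22.

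The size of the fall in cell division genes depended on the label. With the libraries labelled E18.5 in place of E17.5, 4 of 39 cell cycle genes and 14 of 30 replication genes fell, with medians of -0.74 and -0.92. Fewer genes of any kind fell in that comparison, 1363 of 18193 against 2889 as labelled. Mki67 read 12.04, 11.98 and 11.83 in the libraries labelled E18.5, between both ages, and its step became -0.74 (adjusted p = 0.24). Cell cycle genes ranged in their mean over the list from 10.73 to 10.80 at knockout E15.5, from 9.13 to 9.43 at knockout E17.5 and from 9.94 to 10.23 under the E18.5 label.

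Promoters of 3 cell cycle genes that fell are shown as examples, not as a sample of the list. The 200 bases before the start sites of Ccnb2 (chr9:70421555-70421754, minus strand), Cdc20 (chr4:118437344-118437543, minus strand) and Plk1 (chr7:122159235-122159434, plus strand) follow, 5′ to 3′, from RefSeq on GRCm38.p6. Capitals mark CCAAT, the sequence bound by NF-Y, and TTTGAA, the core of the element (CHR) through which dividing and resting cells tune mitotic genes.
Ccnb2: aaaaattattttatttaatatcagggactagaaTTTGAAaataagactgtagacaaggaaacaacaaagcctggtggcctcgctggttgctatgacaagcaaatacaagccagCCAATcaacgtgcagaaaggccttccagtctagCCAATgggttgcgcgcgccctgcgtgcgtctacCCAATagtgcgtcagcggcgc
Cdc20: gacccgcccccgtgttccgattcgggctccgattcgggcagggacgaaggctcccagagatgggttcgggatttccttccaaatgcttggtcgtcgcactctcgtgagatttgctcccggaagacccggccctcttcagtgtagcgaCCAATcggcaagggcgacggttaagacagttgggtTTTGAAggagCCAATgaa
Plk1: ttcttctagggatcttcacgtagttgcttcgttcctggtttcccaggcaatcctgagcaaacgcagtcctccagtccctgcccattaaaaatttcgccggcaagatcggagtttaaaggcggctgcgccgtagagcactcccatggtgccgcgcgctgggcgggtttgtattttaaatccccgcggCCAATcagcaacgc
Ccnb2 holds 3 copies of CCAAT, Cdc20 holds 2 and Plk1 holds 1, and TTTGAA is in the windows of Ccnb2 and Cdc20. Of the 39 cell cycle genes, 31 matched the table, with 32 windows. CCAAT on either strand was in 24 of them (75%) against 29.3% of all windows, and TTTGAA in 10 (31.2%) against 12.5%. The printed examples thus hold TTTGAA more often than the list does. In the 31 windows of 26 DNA replication genes the shares were 51.6% and 6.45%. Matches describe letters in the window and are not evidence of binding in these lungs.

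Transcription factors of the lung epithelium were called in both directions. Of 28 measured 8 rose and 3 fell, against 17.4% and 15.9% of all genes, with a median step of 0.10 (8 rose and 1 fell with the E18.5 label). Steps were not called for Nkx2-1 (0.04), Foxa2 (-0.15) or Gata6 (0.14), the factors that specify lung epithelium, nor for the airway factor Sox2 (-0.73, adjusted p = 0.0762). The Nkx2-1 probe set was dim (6.30 to 7.05 in all 6 libraries). Tfcp2l1 rose by 2.29, and Elf5 rose by 2.19 from 10.40, 9.16 and 8.73 to 11.62, 11.63 and 11.58, and Foxp2 fell by 0.64. Among 18 genes of distal tip progenitors 7 fell and 4 rose. Sox9, the tip marker, read 9.07, 9.23 and 9.08 and then 7.79, 8.03 and 7.99 (step -1.19 ± 0.26, adjusted p = 0.000245), and the secreted chaperone Clu (-1.78), Sox11 (-1.41), Mycn (-1.39) and the chromatin protein Hmga2 (-1.2) fell with it. Spry4, a feedback inhibitor of growth factor signalling, rose by 1.31. With the E18.5 label 6 fell and 1 rose.

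Signals of branching did not move as a block. Of 27 measured, 5 rose and 8 fell, against 17.4% and 15.9% of all genes, and with the E18.5 label 3 rose and 2 fell. The hedgehog effectors Gli3 and Gli1 fell by 1.49 and 1.18 and the receptor Ptch1 by 0.61, whereas the ligand Shh (0.27, adjusted p = 0.516), the mesenchymal growth factor Fgf10 (0.14, adjusted p = 0.781) and Bmp4 (0.01, adjusted p = 0.988) were not called. Fgf7, which acts on epithelial growth and maturation, rose by 1.21. In the Wnt list, 5 of 32 rose and 10 fell (3 and 3 with the E18.5 label). The Wnt amplifier Rspo2 (-1.98), the nuclear effector Lef1 (-1.32), the antagonist Sfrp1 (-1.16) and the ligand Wnt7b (-0.77) fell, while the feedback inhibitors Nkd1 and Notum rose by 1.85 and 1.03. Of 16 Notch genes 5 rose and 2 fell (3 and none with the E18.5 label). Of 17 retinoid genes 3 rose and 4 fell (2 and 3 with that label), with Crabp2, a retinoic acid binding protein, down by 2.52 from 7.44, 7.49 and 7.71 to 5.37, 5.41 and 4.31.

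Fetal growth and positional genes were mostly lower or not called. Of 22 fetal and imprinted growth genes 8 fell and 2 rose (15.9% of all genes fell), and 3 fell with the E18.5 label. The amino acid transporter Slc38a4 (-1.39) and the fetal RNA-binding protein Igf2bp1 (-1.11) fell, and the imprinted noncoding RNA Meg3 rose by 1.45. Igf2, the fetal growth factor, read 13.68, 13.63 and 13.65 and then 13.22, 12.92 and 13.14, without overlap but without passing the test (step -0.56, adjusted p = 0.192). Of 14 genes of the Igf axis 3 rose and 5 fell (3 and none with the E18.5 label). Igf1 (-0.92) and the binding proteins Igfbp2 (-2.81) and Igfbp5 (-1.11) fell, and the binding proteins Igfbp6 and Igfbp7 rose by 3.97 and 2.30. Of 17 Hox genes 7 fell and none rose, led by Hoxb6 (-1.75) and Hoxb5 (-1.64), and 8 fell with the E18.5 label. The secreted growth factor Mdk, known from dividing embryonic tissue, fell by 2.61 from 13.29, 13.30 and 13.14 to 11.01, 10.26 and 10.64, and the fetal junction protein Cldn6 fell too (-2.71).

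Matrix genes were called in both directions. Of 15 elastic fibre genes 6 rose (40%) and 4 fell (26.7%), against 17.4% and 15.9% of all genes, and 7 rose and 1 fell with the E18.5 label. Eln, elastin itself, rose by 1.29 from 12.53, 11.87 and 11.85 to 13.29, 13.46 and 13.36, as did the assembly proteins Ltbp2 (1.5), Fbln5 (1.46) and Mfap4 (1.43). Fbn2, the fetal fibrillin, read 13.02, 13.01 and 13.05 and then 11.33, 11.09 and 11.30 (step -1.79 ± 0.23, adjusted p = 1.26e-08). Among 22 matricellular genes 11 rose (50%) and 7 fell (31.8%), and 9 and 4 with the E18.5 label, with Spon1 up by 2.80 and the proteoglycan Vcan, the secreted factor Ptn and the adhesive protein Thbs1 down by 2.33, 1.85 and 1.70. Of 21 collagens 9 rose (42.9%) and 3 fell (14.3%, below the share of all genes), and 9 rose and none fell with the E18.5 label. The collagen IV chains Col4a3 and Col4a4, which join the alveolar basement membrane, rose by 2.74 and 2.19, Col18a1 fell by 1.07 and Col1a1 was not called (-0.59, adjusted p = 0.0901). Of 15 basement membrane genes 7 rose and none fell (8 rose with the E18.5 label).

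Fibroblast and vessel genes rose, and smooth muscle genes did not. Of 20 lipofibroblast and alveolar fibroblast genes 15 rose and none fell, against 17.4% and 15.9% of all genes (9 rose with the E18.5 label). Cd36, a fatty acid uptake receptor shared with capillary cells, read 9.46, 8.85 and 9.01 and then 12.33, 12.47 and 12.47 (step 3.31 ± 0.19, adjusted p = 4.46e-19). Inmt, an amine methyltransferase, rose by 3.32, the fatty acid carrier Fabp4 by 2.18, Pparg by 1.38 and the fibroblast factor Tcf21 by 1.31. Of 15 smooth muscle and myofibroblast genes 1 rose and 4 fell, and none was called with the E18.5 label. The factor Myocd fell by 1.24 and the myosin Myh11 by 1.06, both called here and neither with the E18.5 label (adjusted p = 0.59 and 0.95), and Acta2 was not called (-0.28). Of 38 endothelial genes 22 rose and 1 fell, Aplnr, a receptor of capillary endothelium (18 rose and none fell with the E18.5 label). Gpihbp1, which anchors lipoprotein lipase in capillaries, rose by 2.85, Calcrl by 1.93, and the defining endothelial genes Pecam1, Cdh5 and Kdr by 1.31, 0.93 and 0.87. Of 13 pericyte and mesothelial genes 3 rose and 2 fell (3 and none with the E18.5 label).

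Genes of fluid transport and barrier rose. Of 21 genes of ion and fluid transport 14 rose and none fell, against 17.4% and 15.9% of all genes (12 rose with the E18.5 label). The sodium channel subunits that clear lung liquid at birth rose by 2.90 (Scnn1g), 2.01 (Scnn1a) and 1.06 (Scnn1b), the sodium pump subunit Atp1b1 by 1.85, the capillary water channel Aqp1 by 2.84 and the chloride channel Cftr by 1.22. Scnn1g read 7.63, 7.21 and 7.56 and then 10.24, 10.47 and 10.40, with no overlap. Of 21 tight junction genes 11 rose and 2 fell (6 and 2 with the E18.5 label), with the alveolar claudin Cldn18 up by 1.49.

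Fatty acid and phospholipid synthesis genes rose, and most cholesterol synthesis genes were not called. Of 25 genes of fatty acid and phospholipid synthesis 17 rose and 1 fell (17.4% of all genes rose), and 11 rose and 1 fell with the E18.5 label. Scd1 read 8.80, 8.62 and 8.78 and then 13.23, 13.84 and 13.77. The acyltransferase Gpam rose by 1.60, the regulator Srebf1 by 1.06 and the fatty acid synthase Fasn by 0.91. Elovl6, an elongase, was the member that fell, by 1.60. Of 18 cholesterol synthesis genes 1 rose and 6 fell, against 17.4% and 15.9% of all genes, and 11 were not called. The median step of this list was -0.23 as labelled and 0.01 with the E18.5 label. The fallen ones included Dhcr7, by 1.42, Cyp51 by 1.16 and Sqle by 1.03, and with the E18.5 label the list had 1 fall and no rise.

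Glucocorticoid response genes rose and Crh fell. Of 22 measured 17 rose and 2 fell, against 17.4% and 15.9% of all genes, with a median step of 1.45. With the E18.5 label 14 rose and none fell. Hsd11b1, the enzyme that regenerates active glucocorticoid inside cells, read 9.01, 7.62 and 7.76 and then 12.50, 12.68 and 12.72 (step 4.51 ± 0.32, adjusted p = 9.32e-16). Hsd11b2, which inactivates the hormone, fell by 1.00, and the receptor Nr3c1 rose by 0.62. The receptor's known targets Zbtb16, Klf9, Tsc22d3 and Per1 rose by 2.97, 2.80, 1.73 and 1.57, and Fkbp5, another, was not called (0.61, adjusted p = 0.155). Crh, the hormone that starts the pituitary and adrenal axis and is also made in fetal lung mesenchyme, read 10.93, 10.05 and 10.21 and then 8.62, 7.63 and 8.27 (step -2.23 ± 0.34, adjusted p = 5.58e-07). The libraries labelled E18.5 read 10.44, 11.15 and 11.03, so Crh did not fall with them in place (step 0.47, adjusted p = 0.479).

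Clock, hypoxia and early response genes moved with these. Of 18 clock genes 14 rose and none fell, against 17.4% and 15.9% of all genes (6 rose with the E18.5 label). Bhlhe40, a repressor in the clock loop, rose by 2.33. Nr1d1, another repressor, rose by 1.29, and its step was -0.01 with the E18.5 label. The hour at which lungs were taken is not in the labels, so age and hour cannot be told apart. Of 22 hypoxia response genes 12 rose and 1 fell (10 and none with the E18.5 label), with Ndrg1 up by 2.82, Ankrd37 by 2.78, the vasodilator peptide Adm by 2.26 and the vessel growth factor Vegfa by 1.85. Of 19 immediate early genes 11 rose and 2 fell (9 and none with that label).

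Enzymes that Nrf2 controls did not move together in its absence. Of 39 measured target genes 10 rose and 4 fell, against 17.4% and 15.9% of all genes, and the median step was 0.09. With the E18.5 label 7 rose and 2 fell. The aldehyde oxidase Aox3 rose by 2.24, the epoxide hydrolase Ephx1 by 1.84, Mgst2 by 1.67 and Gstm1 by 1.56. Txnrd1, thioredoxin reductase, fell by 1.39 and the quinone reductase Nqo1 by 0.65 (7.79, 7.40 and 7.47, then 6.89, 6.91 and 6.91). The glutathione synthesis subunit Gclc (0.05), the heme oxygenase Hmox1 (0.07) and Gsta3 (0.09) were not called. In wild type 9 of the 39 rose and 6 fell, against 12.1% and 12.5% of all genes in that genotype. No member's steps differed between genotypes at the threshold. Of 12 partners and regulators of Nrf2 4 rose and none fell (4 and 1 with the E18.5 label), including the small Maf protein Maff (2.00) and the repressor Bach1 (1.2). Of 23 other antioxidant genes 11 rose and 4 fell (8 and none with that label), with Gpx3 up by 2.37, Txnip by 2.16 and Glrx by 1.22. Of 25 cytochrome P450 and drug metabolism genes 14 rose and 1 fell (9 and 1 with that label), with Cyp2e1 up by 3.58.

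Genes of macrophages and of interferon response rose. Of all genes 17.4% rose and 15.9% fell. Of 32 macrophage genes 20 rose and none fell, with a median step of 1.13. Of 24 interferon response genes 21 rose and none fell, with a median of 1.34. With the E18.5 label 11 and 8 rose. Lyz2, the lysozyme of macrophages and type 2 cells, read 10.30, 9.48 and 9.91 and then 13.87, 13.97 and 13.92 (step 4.02 ± 0.35, adjusted p = 3.42e-13). Mpeg1, a pore protein of phagocytes, rose by 2.95 from 8.09, 7.51 and 7.38 to 10.38, 10.71 and 10.74, the beta-glucan receptor Clec7a by 2.66, Clec4n by 2.01, the adaptor Tyrobp by 1.82 and the growth factor receptor Csf1r by 0.86. Defining macrophage genes were not all called: Adgre1 stepped by 0.35 (adjusted p = 0.145), C1qa by 0.27 (adjusted p = 0.456) and Mrc1 by 0.07 (adjusted p = 0.858). The scavenger receptor Marco read 4.34, 4.54 and 4.28, near the floor, and then 6.95, 7.58 and 7.28.

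In the interferon list Xaf1 read 7.19, 6.66 and 7.29 and then 10.16, 10.43 and 10.20 (step 3.22 ± 0.29, adjusted p = 8.81e-13). Rtp4 rose by 2.89, the signalling factors Irf9 and Irf7 by 1.75 and 1.60, Ifi35 by 1.74, the antiviral genes Ifit1 and Oasl2 by 1.68 and 1.48, and the surface protein Bst2 by 1.14. Replicate 2 of E15.5 was the lowest of its group for Xaf1 and Rtp4. The lists that follow stand against 17.4% of all genes risen and 15.9% fallen. Of 15 antigen presentation genes 7 rose and none fell (3 rose with the E18.5 label), with H2-D1 up by 1.64 (its probe sets can be shared with other class I genes) and the immunoproteasome subunit Psmb8 by 1.35. Of 21 neutrophil genes 11 rose and none fell (7 rose with that label), with the calprotectin subunits S100a9 and S100a8 up by 3.43 and 3.09 and the granule protein Ngp by 2.20, while the defining granule enzymes Elane (0.43) and Mpo (-0.43) were not called. Of 25 inflammation genes 8 rose and 2 fell (7 and 1 with that label), the risen ones including the endotoxin receptor Tlr4 (1.79) and the feedback inhibitor Socs3 (1.58). Of 18 complement and airway defence genes 12 rose and none fell (7 rose with that label), and of 11 mast cell genes 2 rose under either label.

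**Figure D3:**
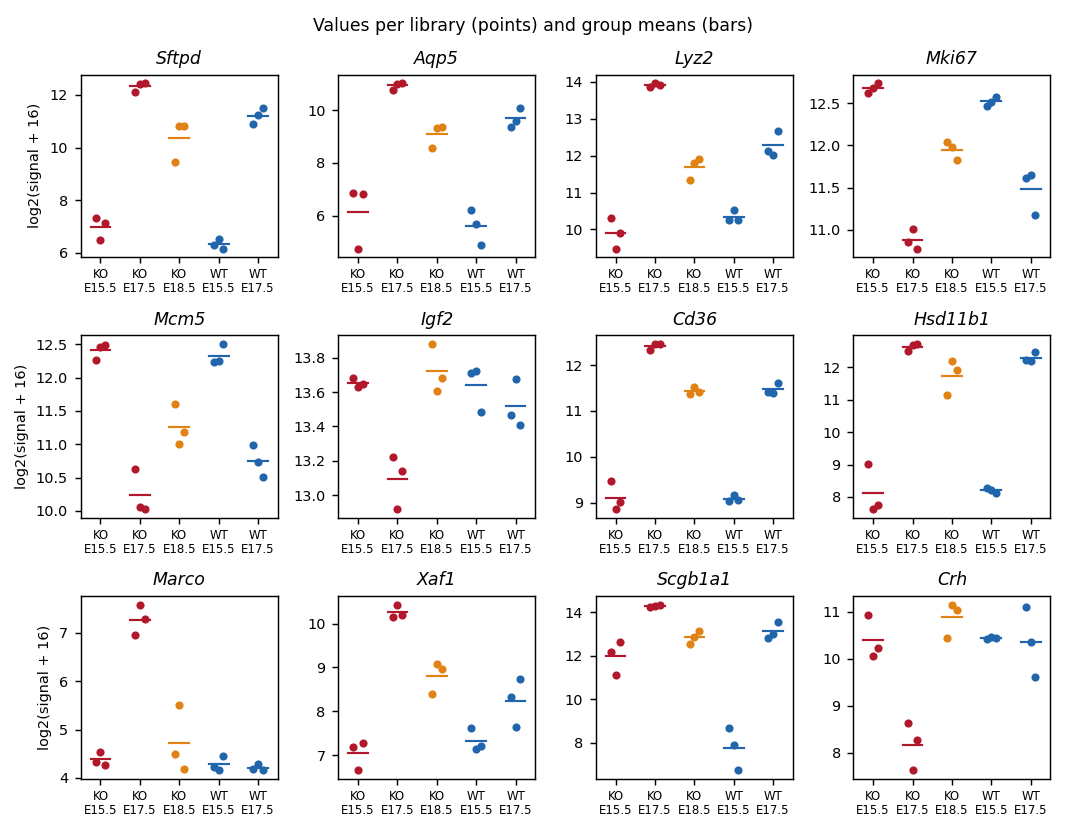
log2(signal + 16) of 12 genes in every library (points) with group means (bars), for knockout (KO) and wild-type (WT) lungs. Red is knockout, blue wild type and orange the knockout libraries labelled E18.5, which lie between the knockout ages for Sftpd, Aqp5 and Mki67 and at the E15.5 level for Crh.

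Several of the largest falls were of thymocyte and other thymus genes, and the lymphoid list had a negative median step in both genotypes. Rag1, the recombinase of developing lymphocytes, read 10.29, 8.01 and 9.07 and then 6.63, 5.99 and 5.08 (step -3.23 ± 1.19, adjusted p = 0.0396). The thymus protease Prss16 (-3.19), the receptor segment Trbv1 (-3.13), Cd3g (-2.90), the thymic chemokine Ccl25 (-2.79) and the pre-receptor chain Ptcra (-2.33) fell as well. Replicate 1 of E15.5 was the highest in all of these. The mean over 23 lymphoid genes was 7.12 in that library, 5.99 and 6.22 in the other two, 5.38 to 5.87 at E17.5 and 7.81 in replicate 1 of the E18.5 label. Every knockout E15.5 mean lay above every knockout E17.5 mean, and in wild type the means were 6.88, 6.84 and 6.83 and then 5.36, 5.30 and 5.34. Of all genes 15.9% fell in knockout and 12.5% in wild type, and 17.4% and 12.1% rose. Of the 23 lymphoid genes, 6 fell and 2 rose in each genotype, with median steps of -0.74 in knockout and -1.45 in wild type. In knockout 1 fell without replicate 1 of E15.5, 2 without replicate 2 or replicate 3 of E17.5, and none fell with the E18.5 label. The part of attached thymus in this result was not tested.

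The embryonic globins fell. Hba-x read 9.61, 11.08 and 11.16 and then 8.21, 7.12 and 6.86 (step -3.22 ± 0.41, adjusted p = 8.81e-09). Hbb-y fell by 2.94 and Hbb-bh1 by 1.90, though Hbb-y in replicate 1 of E17.5 (12.39) lay close to replicate 1 of E15.5 (12.49). Near-identical globin genes can share probes. Of 25 erythroid genes 4 fell (16%) and none rose, against 15.9% and 17.4% of all genes (3 fell with the E18.5 label). The fourth was Tfrc, the transferrin receptor, which dividing cells of other kinds also carry, with a step of -0.76. The heme synthesis enzyme Alas2, a defining one, was not called (0.58, adjusted p = 0.205). None of 11 platelet genes was called under either label.

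Tissues beside the lung were checked with their markers. Of all genes 17.4% rose and 15.9% fell. None of 18 heart, 16 skeletal muscle or 15 liver genes was called in the knockout step, and with the E18.5 label 3 heart genes rose. Of 14 squamous oesophagus genes 1 rose and 1 fell (3 and none with that label), and of 14 nerve genes 1 rose and 3 fell (none called with that label), including the neurofilament Nefm (-2.35). Of 15 cartilage genes 4 fell (1 rose and none fell with that label), among them Col2a1 (8.79, 9.67 and 10.29, then 8.08, 6.33 and 6.49, step -2.62 ± 1.00, adjusted p = 0.0491). Col2a1 read 13.02 in replicate 1 of the E18.5 label, which also had the highest mean over heart, cartilage, nerve and lymphoid genes. The liver gene Alb read 8.03 to 11.10 in the 6 knockout libraries and 5.45 to 6.55 at wild-type E17.5, and the oesophageal keratins Krt4 and Krt13 read 10.12 to 10.98 at wild-type E17.5 and 5.32 to 7.32 at knockout E17.5. The part of attached tissue in the results was not tested. Of 21 ribosomal protein genes 1 rose and 1 fell (none called with that label), and of 29 respiratory chain genes 1 rose and 3 fell (1 and none with that label).

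Other genes with large falls belonged to no list. Cym, a digestive protease, fell by 3.01 from 8.92, 9.35 and 9.64 to 6.60, 6.06 and 6.20. Mtm1, a lipid phosphatase, fell by 2.87 from 12.56, 12.39 and 12.54 to 10.12, 9.41 and 9.34, but of its other 2 probe sets 1 was called in the same direction and 1 in the opposite one.

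Most genes called in the knockout step moved in the same direction in wild type. The wild-type step was called for 4472 genes (24.6%), of which 3744 were also called in the knockout, 3737 of them with the same sign. These shared genes were 61.8% of those called in knockout and 83.7% of those called in wild type. Where both were called, the median ratio of the knockout step to the wild-type step was 1.24, and 2924 of the 3737 steps with the same sign were larger in the knockout. Both values hold for the libraries as labelled and were not computed with the E18.5 label. Mean positions on the age scale were 0.75 for knockout E17.5, 0.58 for wild-type E17.5 and 0.45 for the knockout E18.5 label. The knockout step was below the wild-type step in 39 of 39 cell cycle genes and 30 of 30 DNA replication genes, although the difference passed the test in none of them. For Mki67 the difference was -0.77 ± 0.53 (adjusted p = 0.77). The median steps of these 2 lists were -1.04 and -1.34 in wild type and -1.60 and -1.78 in knockout as labelled. With the E18.5 label the knockout medians were -0.74 and -0.92, smaller falls than in wild type, so the larger fall in knockout holds only as labelled. In wild type 20 type 2 genes, 20 type 1 genes, 27 cell cycle genes and 29 DNA replication genes were called in the directions seen in the knockout. The wild-type shares over all genes were 12.1% risen and 12.5% fallen.

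**Figure D4:**
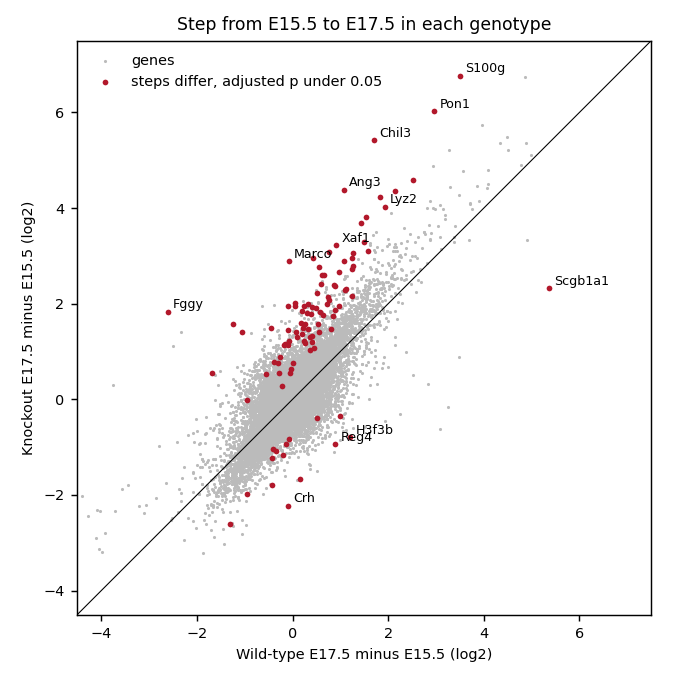
Step from E15.5 to E17.5 of each gene in wild type (x axis) and knockout (y axis), in log2, with the line of equal steps. Red points are the 103 genes whose steps differed at an adjusted p under 0.05, of which 87 lie above the line.

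The difference between the steps was tested as the knockout step minus the wild-type step. It was called for 103 genes (0.566%), 87 higher and 16 lower, and for 172 of 45037 probe sets (0.382%). The 16 lower ones were 0.0879% of all genes. Among probe sets 73.3% of the called differences were higher, and this split was 86.6% with array medians subtracted and 46.4% of 1334 with normalization and fit restricted to the 12 libraries. In 85 of the 87 the knockout step was itself a called rise, and in 12 of the 16 a called fall. The call depended on the labels: with the knockout libraries labelled E18.5 in place of E17.5, 12 probe sets were called, 8 of them among the 172, and with wild-type libraries of E18.5 in place of E17.5, 38 were called. With the knockout E18.5 label the differences of S100g, Pon1, Gjb6, Lyz2, Chil1, Car4, Ankrd37 and Txnip turned below 0 and those of Crh, Fbn2, Mdk and Mlec above 0, none of them called. Leaving out 1 library gave 70 to 192 probe sets. The count was 70 and 109 without replicate 2 and replicate 1 of wild-type E17.5, 79 and 92 without replicate 2 and replicate 3 of wild-type E15.5, 71 and 81 without the same replicates of knockout E15.5, and 90 and 78 without those of knockout E17.5.

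With the libraries as labelled, macrophage and interferon genes were the lists with most of these calls. Of 32 macrophage genes 10 had a higher step in knockout, against 0.478% of all genes. Lyz2 is also in the type 2 list and Car4 in the endothelial list. Chil3 read 5.28, 4.20 and 6.13 and then 10.43, 10.58 and 10.86 in knockout, and 4.38, 4.82 and 4.61 and then 6.03, 5.94 and 6.97 in wild type, a difference of 3.71 ± 0.79 (adjusted p = 0.014). Lyz2 differed by 2.09 ± 0.50, with 10.25, 10.53 and 10.27 and then 12.13, 12.02 and 12.68 in wild type. Marco, at 4.16 to 4.46 in all 6 wild-type libraries, differed by 2.96. Mpeg1, Clec7a, Clec4n and Tyrobp differed by 1.71, 1.69, 1.95 and 1.25, and Car4, a carbonic anhydrase also known from lung capillaries, by 2.31. In wild type 11 of the 32 macrophage genes were called, all higher, against 12.1% of all genes, with a median step of 0.22. Csf1r, Adgre1, C1qa and Mrc1 had no called difference of steps. The calls in both lists depended on the label: with the knockout E18.5 label 12 probe sets were called over the whole array, 8 of them shared. The knockout step of Marco was then 0.34 (limma adjusted p = 0.774).

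Of the interferon genes 6 of 24 differed. Xaf1 read 7.61, 7.15 and 7.22 and then 8.33, 7.66 and 8.73 in wild type, a difference of 2.31 ± 0.41 (adjusted p = 0.0021). Oasl2, Rtp4, Bst2, Irf9 and Ifi35 differed by 1.94, 1.82, 1.31, 1.12 and 0.88, each higher in the knockout step. Bst2 did not overlap between the knockout ages (8.15 to 8.35, then 9.23 to 9.52), whereas in wild type it read 8.33 to 8.58 and then 8.19 to 8.39. Tlr4 and Socs3 differed by 1.41 and 1.33, and among type 2 genes the chitinase-like Chil1 by 2.27 and the alarmin Il33 by 1.81 besides Lyz2. Ankrd37, Glrx, Txnip and Bach1 differed by 1.51, 0.98, 0.91 and 0.79.

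Outside the lists, the difference was largest for Fggy, a sugar kinase. It read 5.83, 7.33 and 5.32 and then 8.01, 8.08 and 7.88 in knockout, and 6.13, 7.46 and 7.89 and then 4.30, 4.40 and 4.96 in wild type. As labelled, the genotypes moved in opposite directions (difference 4.44 ± 0.59, adjusted p = 4.7e-05). With the E18.5 label the knockout step of Fggy was 0.02 (limma adjusted p = 0.989), so its rise in knockout holds only as labelled. The ribonuclease Ang3 differed by 3.31, S100g by 3.28, Pon1 by 3.06, the myeloid gene Slfn4 by 2.84, the sulfate transporter Slc13a4 by 2.53, the glutathione transferase Gstm6 by 2.47 and the gap junction gene Gjb6 by 2.40. S100g read 5.16, 4.11 and 4.15 and then 7.48, 7.65 and 8.77 in wild type, below all knockout E17.5 values. Gstm6 was dim, at 6.15 or lower in all 12 libraries, and its family members are similar in sequence.

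Among genes whose step was lower in knockout, Scgb1a1 had the largest difference. Its wild-type libraries read 8.65, 7.90 and 6.73 at E15.5 and 12.81, 12.99 and 13.57 at E17.5, so the wild-type step was 5.36 and the knockout step 2.32 (difference -3.05 ± 0.71, adjusted p = 0.03), and knockout values were the higher ones at both ages. The step of Crh, a fall in knockout, was below that of wild type (difference -2.14 ± 0.48, adjusted p = 0.021), with wild-type values of 10.43, 10.46 and 10.44 and then 11.09, 10.34 and 9.62. Fbn2 differed by -1.35, from 12.95, 13.11 and 12.97 to 12.65, 12.79 and 12.30 in wild type, and Mdk by -1.30. The histone gene H3f3b (-2.0), the lectin Reg4 (-1.83), the kinesin Kifc5b (-1.82), the chaperone Hsph1 (-1.03), the histone methyltransferase Nsd2 (-0.96) and the endoplasmic reticulum lectin Mlec (-0.81) were the other genes named by the rule. With array medians subtracted, the differences of Fbn2 (adjusted p = 0.0909), Mdk (0.21), Hsph1 (0.126) and Mlec (0.259) were no longer called by limma. Without normalization those of Mdk, Mlec, Lyz2, Oasl2, Ifi35, Bach1 and Txnip were lost (adjusted p = 0.0569 to 0.141), and with a common trimmed mean those of Slc13a4, Kifc5b, Fbn2, Mdk, Mlec, Lyz2 and Oasl2 (adjusted p = 0.055 to 0.123). H3f3b did not pass the test in the knockout step itself (-0.80, adjusted p = 0.0685).

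**Figure D5:**
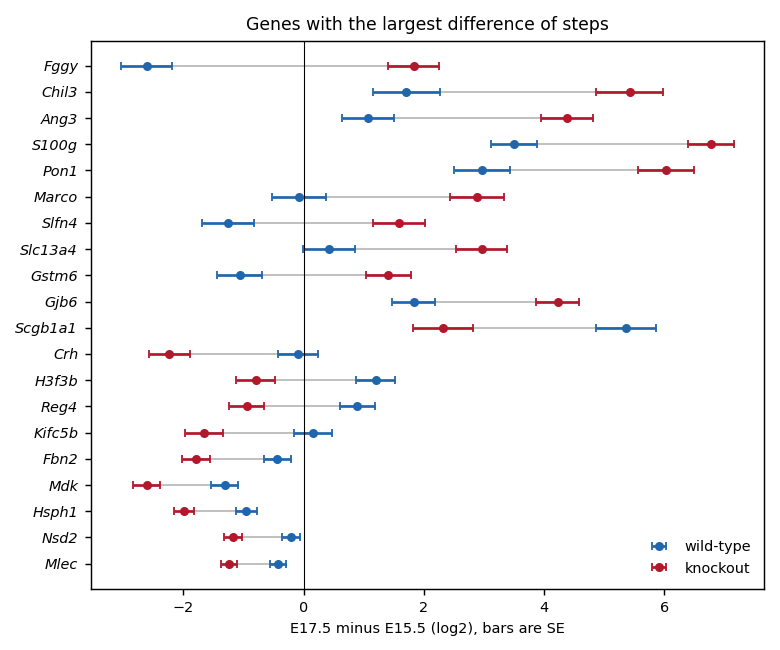
Step from E15.5 to E17.5 (x axis, log2, mean ± SE) in knockout and wild type for the 10 genes with the highest and the 10 with the lowest difference of steps among those that passed the test. With the libraries as labelled, Fggy moves in opposite directions, and Scgb1a1 rises by 2.32 in knockout and by 5.36 in wild type.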

How the data were processed

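Whole-lung RNA was measured on 1 Affymetrix mouse array per sample. The authors deposited 1 linear intensity per probe set. The submitters' processing notes name GCOS, the Affymetrix scanner software, and its algorithm and version are not given in the sources used here. From these, 64 control probe sets were left out, and 45037 intensities per array were quantile normalized over 66 arrays and taken as log2(value + 16). A limma 3.58.1 model (R 4.3.3) with 22 group means, empirical Bayes moderation and an intensity trend gave each step and their difference, adjusted by Benjamini-Hochberg over all probe sets. The design cannot give an exact permutation p under 0.1, so none was used. Each SE pools the spread of all groups. The platform annotation gave 1 symbol for 34945 probe sets, several for 932 and none for 9160, and the brightest probe set stood for a gene. Named genes were the 15 largest non-overlapping rises and falls, the 10 largest differences of steps in each direction, and up to 6 called members per list and direction with defining members. Some further list members were named after their values were seen. Members and the 57 gene lists were chosen with earlier results of these data known. The model was tested on simulated data with changes planted in the knockout E17.5 libraries and no other step. The knockout step recovered 42% of planted log2 changes of 1 and 90% of those of 2, with 3.1% of calls false. Far fewer probe sets had a planted change than were called in the data, so these shares need not hold for the knockout step. For the difference of steps the values were 24%, 72% and 6.6%, so an uncalled difference does not show equal steps. Replicate numbers did not pair the libraries (correlation of deviations -0.041 to 0.0004 in knockout).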

Additional observations from a re-analysis of the deposited data

Results flagged for a closer look

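Genes named above were set apart where the step from E15.5 to E17.5 differed between knockout and wild type by limma's test of the difference at an adjusted p under 0.05. The knockout step exceeded the wild-type step by 4.44 in Fggy, 3.71 in Chil3, 3.31 in Ang3, 3.28 in S100g, 3.06 in Pon1, 2.96 in Marco, 2.84 in Slfn4, 2.53 in Slc13a4, 2.47 in Gstm6, 2.40 in Gjb6, 2.31 in Car4, 2.31 in Xaf1, 2.27 in Chil1 and 2.09 in Lyz2. Smaller excesses were 1.95 in Clec4n, 1.94 in Oasl2, 1.82 in Rtp4, 1.81 in Il33, 1.71 in Mpeg1, 1.69 in Clec7a, 1.51 in Ankrd37, 1.41 in Tlr4, 1.33 in Socs3, 1.31 in Bst2, 1.25 in Tyrobp, 1.12 in Irf9, 0.98 in Glrx, 0.91 in Txnip, 0.88 in Ifi35 and 0.79 in Bach1. The knockout step was lower, with differences of -3.05 in Scgb1a1, -2.14 in Crh, -2.0 in H3f3b, -1.83 in Reg4, -1.82 in Kifc5b, -1.35 in Fbn2, -1.30 in Mdk, -1.03 in Hsph1, -0.96 in Nsd2 and -0.81 in Mlec. All values are log2 differences, n = 3 per group. Groups of 3 were too small for a search for single outlying libraries.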

How the results depend on the processing

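Counts of called probe sets are given as knockout step, wild-type step and difference of steps, with 10725, 8092 and 172 as reported. The counts differed with the libraries fitted. Quantile normalization over the 12 arrays gave 14379, 12301 and 1334, fitting only the 12 libraries gave 14377, 12301 and 1338, and array weights gave 15940, 12245 and 2136. The 24 embryonic libraries alone gave 12144, 9769 and 125, of which 60.8% were higher, and the 6 knockout libraries alone gave 14178. The cause was not tested. With the 12 arrays, the 12 libraries and array weights the share of differences that were higher was 46.4%, 46.9% and 58%, against 73.3%. Without normalization 101 differences were called, and 59.4% of wild-type calls were higher. With 1 probe set per gene 6429, 4860 and 134 were called among fewer tests. Array medians gave 238 differences, 86.6% higher, and 30.3% of wild-type calls higher against 48.7%, with the median gene shifted by 0.18 in the difference. Leaving out 1 library gave 8786 to 9893, 5715 to 7124 and 70 to 192.

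With the knockout libraries labelled E18.5 in place of E17.5, 5062 probe sets were called in the knockout step and 12 in the difference (41.7% higher), and with wild-type E18.5 in place of E17.5 the difference had 38 (42.1% higher). Under the knockout E18.5 label the knockout step turned to 0.11 in Trbv1, 0.56 in Col2a1, -0.52 in Slfn4, 0.47 in Crh, 8e-04 in Uchl1 and -0.014 in Nr1d1. The difference of steps turned to -0.29 in S100g, -0.58 in Pon1, -0.13 in Gjb6, 0.56 in Crh, 0.31 in Fbn2, 0.22 in Mdk, 0.35 in Mlec, -0.14 in Lyz2, -0.24 in Chil1, -0.25 in Car4, -0.078 in Ankrd37 and -0.067 in Txnip. Under the wild-type E18.5 label it turned to 0.96 in Crh, 0.44 in Mdk and -0.43 in Car4. The cause was not tested.

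Of the values of named genes under all alternatives, 6115 kept their side of the threshold, including uncalled values that changed sign. A further 418 kept the direction but lost the call, and 62 gained it. Another 21 reversed and were called as reported or under the alternative. The fit with the replicate number as a block called 10758, 8124 and 167 probe sets. It moved no count by over 1.5 times, and among named genes it ended 3 calls and added 1. The wild-type E18.5 alternative was chosen after seeing the data. Genes near the floor of the scale, such as Marco and S100g at E15.5, have understated steps.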
